A study of Mus musculus with 6 samples.

Results

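Car4, Ednrb and Apln, which mark the aerocytes of the lung, and Aplnr, Plvap, Gpihbp1, Kit and Ptprb, which mark its general capillary cells, were compared between lungs of tamoxifen-treated Tmem100 mutant mice and control mice. The 8 genes were taken by name, and every probe annotated to them with a detection p-value below 0.05 on at least 3 of the 6 arrays was kept. Of the 8 genes, 6 had an annotated probe (7 probes of the 25697 on the array), and all 7 probes were detected on all 6 arrays. Apln and Kit are not analysed here, since no probe is annotated to them in the annotation used. That annotation covers only the probes of the authors' processed values, so whether the array holds probes for Apln and Kit is not known here. Of its 12495 annotated probes, 12429 passed the detection filter. Genes of the lists below that were not tested also had no annotated probe.

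Whole-lung RNA was hybridised to Illumina mouse bead arrays, a single array for each mouse. The mutant group was 3 mice with the genotype Tmem100 2loxP/2loxP;ROSA26+/CreER, and the control group 3 mice with the genotype Tmem100 2loxP/2loxP. All 6 mice were homozygous for the loxP-flanked allele and received tamoxifen in 2 injections, each of 0.1 mg per g body weight, and lungs were taken 7 days after tamoxifen. CreER was carried by the mutants alone and sat in the ROSA26 locus, which is active in most cell types and does not restrict recombination to endothelium. An effect of CreER activity itself cannot be told apart from an effect of the Tmem100 deletion. The age of the mice is not given in the labels. TMEM100 is a transmembrane protein of endothelial cells, induced by the receptor ALK1.

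The walls of the alveoli hold capillary endothelial cells of 2 kinds. Aerocytes are large, thin cells specialised for gas exchange and for leukocyte traffic. General capillary cells control vascular tone and can proliferate and give rise to both kinds after injury. The 2 kinds are linked by a ligand and its receptor: aerocytes express apelin (Apln), and general capillary cells express the apelin receptor (Aplnr).

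The promoters of Car4 and Ednrb are shown because none was available for the other measured genes. Both are aerocyte markers detected on every array, and Car4 passed the test below while Ednrb did not. The RefSeq table of assembly GRCm38.p6 held a promoter for 2 of the 6 measured genes, running from 250 bases before to 50 bases after a transcription start. The Car4 window lies at chr11:84957504-84957803 on the plus strand, and the Ednrb window at chr14:103843652-103843951 on the minus strand. Capitals mark the core motif of ETS factors, a family that binds many endothelial genes, written GGAA on one strand and TTCC on the other.
Car4: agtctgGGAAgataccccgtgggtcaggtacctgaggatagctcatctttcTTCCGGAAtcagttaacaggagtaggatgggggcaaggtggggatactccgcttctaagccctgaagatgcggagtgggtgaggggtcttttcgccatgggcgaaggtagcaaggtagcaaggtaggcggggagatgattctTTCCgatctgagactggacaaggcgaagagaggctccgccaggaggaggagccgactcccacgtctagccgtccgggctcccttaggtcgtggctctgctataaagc
Ednrb: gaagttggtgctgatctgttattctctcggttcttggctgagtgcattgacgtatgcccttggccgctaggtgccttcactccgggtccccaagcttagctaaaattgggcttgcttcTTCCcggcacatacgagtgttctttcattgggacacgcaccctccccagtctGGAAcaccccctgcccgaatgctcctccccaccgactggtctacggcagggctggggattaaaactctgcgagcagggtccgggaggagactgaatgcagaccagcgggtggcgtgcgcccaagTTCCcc

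The Car4 window held 4 matches to GGAA over both strands, and the Ednrb window 3. Of 27025 promoters of the same length, 95.9% held at least 1 match, so the motif does not set these promoters apart. The KLF and SP box, CACCC, matched 1 time in the Car4 window and 3 times in the Ednrb window, and was found in 56.7% of promoters. Neither window held the SOX core ACAAT (31.6% of promoters), the BMP SMAD element GGCGCC (11.96%) or the E-box CANNTG (72.2%). No match of one motif overlapped a match of another in either window. These matches are descriptions of the letters in the windows, and binding was not measured.

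Of the 6 measured genes, 3 were lower in mutant lungs (Car4, Aplnr and Plvap), 0 were higher, and 3 did not pass the test (Ednrb, Gpihbp1 and Ptprb). The test was limma's moderated test on normalized log2 intensities, with Benjamini-Hochberg adjustment across the 13361 probes tested and a threshold of 0.05. Over all 9383 genes tested, 14.5% were lower and 12.7% were higher by the same rule. All 3 mutants lay below all 3 controls for the same 3 members, as they did for 24.5% of all genes, and for 0 members did all mutants lie above all controls, against 24.6% of all genes. The median difference of the 6 members was -0.58 on the log2 scale, against 0.01 over all genes tested. The members were chosen with earlier results of these data known, so this contrast is a description only. In whole-lung RNA, fewer cells of a type and less RNA per cell cannot be told apart.

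**Figure D1:**
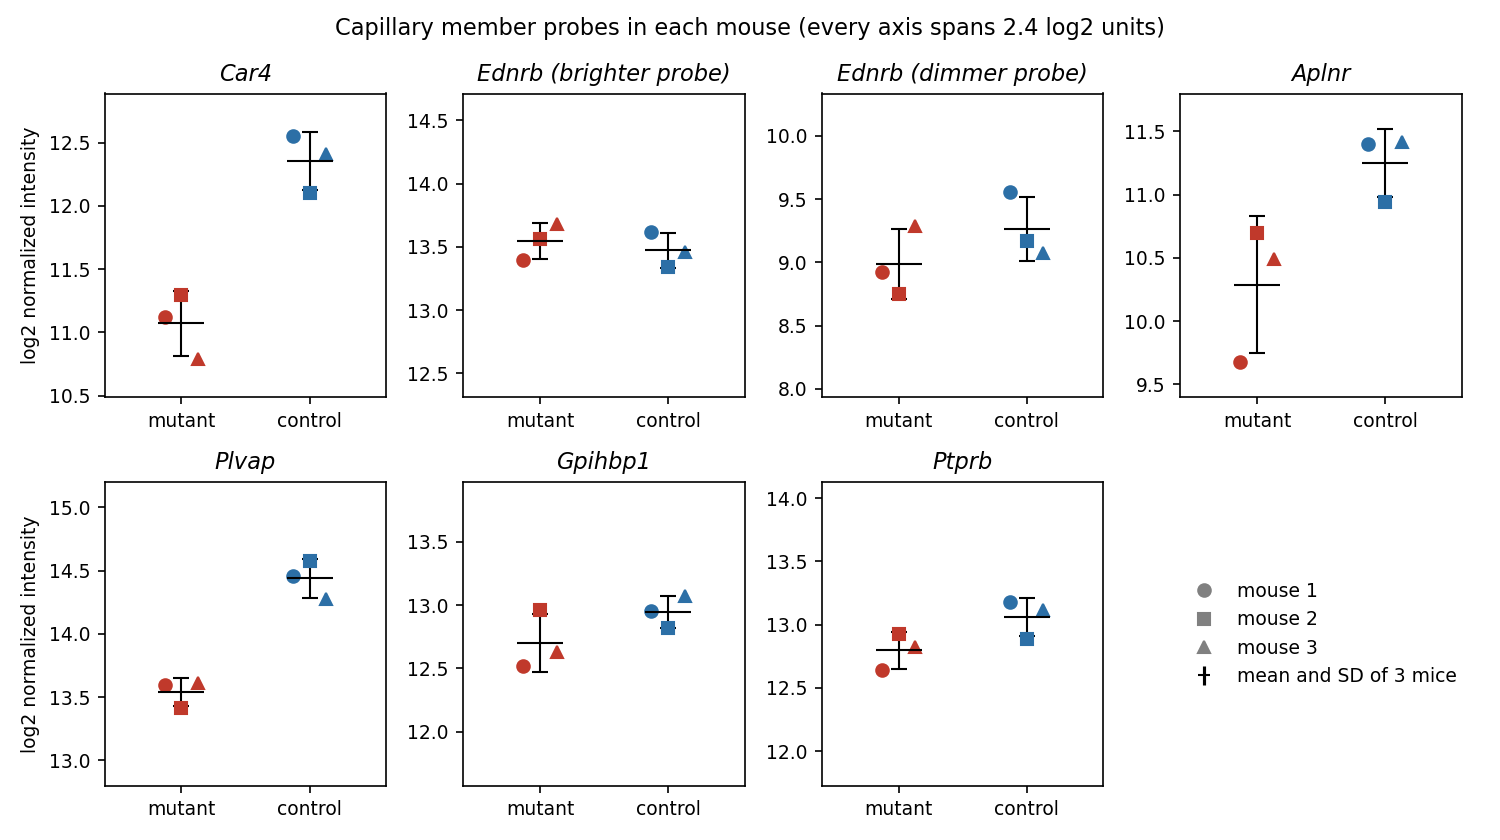
Normalized log2 intensity (y axis) of each member probe in the 3 mutant and 3 control lungs; symbols are single mice, and the bars are the mean and SD of 3 mice. Every axis spans the same number of log2 units: mutants and controls are separate for Car4, Aplnr and Plvap and overlap for both Ednrb probes, Gpihbp1 and Ptprb.

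Among the aerocyte genes, Car4 was lower in mutants. Car4 encodes a carbonic anhydrase anchored on the outer face of the lung capillary membrane, where it speeds the exchange of carbon dioxide. Its normalized log2 intensity was 11.13, 11.30 and 10.79 in mutant mice 1, 2 and 3, and 12.55, 12.10 and 12.41 in control mice 1, 2 and 3. The highest mutant value lay below the lowest control value. As deposited, the intensities of the Car4 probe were 2419, 2639 and 1862 in the mutants and 7785, 4420 and 5621 in the controls, on a linear scale before normalization. The means were 11.07 ± 0.26 in mutants and 12.35 ± 0.23 in controls (SD, n = 3 each), a log2 difference of -1.28 ± 0.18 (SE; adjusted p = 0.00528; 95% interval -1.70 to -0.86), or a 2.43-fold lower level. A larger fall was found for 2.42% of tested probes. Car4 passed the test under all 17 alternative settings, with differences between -1.41 and -0.97.

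Ednrb, the type B endothelin receptor that clears endothelin-1 and acts on vascular tone, was measured by 2 probes, and neither passed the test. The brighter probe read 13.39, 13.56 and 13.68 in mutants and 13.62, 13.34 and 13.46 in controls. Mutant and control values were interleaved, and the log2 difference was 0.07 ± 0.13 (SE; adjusted p = 0.705), with a 95% interval of -0.24 to 0.39. The dimmer probe read 8.93, 8.75 and 9.29 in mutants and 9.55, 9.17 and 9.07 in controls, again with overlap, and its difference was -0.28 ± 0.19 (SE; adjusted p = 0.315; interval -0.73 to 0.17). The dimmer probe passed the test in a fit with array weights (difference -0.51, adjusted p = 0.0494) and under no other setting. The interval of the brighter Ednrb probe does not reach the fall seen for Car4, and the difference between the changes of the 2 genes was not tested.

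Of the general capillary genes, Plvap was lower in mutants. Plvap encodes the protein of the diaphragms that span caveolae, fenestrae and endothelial channels. Its log2 intensity was 13.59, 13.41 and 13.61 in mutants and 14.46, 14.58 and 14.28 in controls, with the groups well apart. The means were 13.54 ± 0.11 in mutants and 14.44 ± 0.15 in controls (SD, n = 3 each), a difference of -0.90 ± 0.13 (SE; adjusted p = 0.00551; 95% interval -1.20 to -0.60), or a 1.86-fold lower level. Plvap passed under all 17 alternative settings, with differences between -0.98 and -0.59.

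Aplnr, the G protein-coupled receptor for apelin and for the peptide Apela, read 9.68, 10.70 and 10.49 in mutants and 11.40, 10.94 and 11.41 in controls. Mutant mouse 1 was the lowest, and mutant mouse 2 lay closest to the controls. The means were 10.29 ± 0.54 in mutants and 11.25 ± 0.27 in controls (SD, n = 3 each), a difference of -0.97 ± 0.28 (SE; adjusted p = 0.0429; 95% interval -1.63 to -0.31), or a 1.95-fold lower level. This call sat close to the threshold. It was lost without mutant mouse 1 (difference -0.66, adjusted p = 0.0687), without mutant mouse 3 (0.0623) and without control mouse 1, 2 or 3 (0.128, 0.0583 and 0.106), as well as with no detection filter (0.0657).

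Gpihbp1 anchors lipoprotein lipase on the capillary wall and did not pass the test. It read 12.52, 12.96 and 12.63 in mutants and 12.95, 12.82 and 13.07 in controls, with mutant mouse 2 inside the control range. The difference was -0.24 ± 0.15 (SE; adjusted p = 0.262; 95% interval -0.60 to 0.11).

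Ptprb encodes VE-PTP, the endothelial phosphatase that removes phosphate from the receptor Tie2 and from VE-cadherin complexes. It read 12.64, 12.93 and 12.82 in mutants and 13.18, 12.89 and 13.11 in controls. Mutant mouse 2 again lay among the controls, and the difference was -0.26 ± 0.13 (SE; adjusted p = 0.186; 95% interval -0.58 to 0.05). The intervals of Gpihbp1 and Ptprb include 0 and also falls of more than 0.5 log2 units.

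Other markers of the same cells were taken from lists of 10 genes each. Of the other aerocyte markers, 6 were tested: 3 were lower, 0 were higher and 3 did not pass, with a median difference of -0.82. Rprml, a relative of the cell cycle inhibitor reprimo, read 5.67, 6.13 and 6.54 in mutants and 8.82, 8.12 and 8.38 in controls, a difference of -2.33 ± 0.26 (SE; adjusted p = 0.00356). The Rprml probe was above background on 2 mutant arrays, and the size of its fall depended on the background correction: the difference was -0.87 without it, -1.39 with an offset of 50 and -0.79 in the deposited processed values.

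Tbx2, a T-box transcription factor, read 10.44, 10.66 and 10.29 in mutants and 11.53, 11.38 and 11.55 in controls (difference -1.02 ± 0.13, SE; adjusted p = 0.00452). Chst1, a sulfotransferase, differed by -1.01 ± 0.19 (SE; adjusted p = 0.0114). The markers that did not pass were Nckap5 (-0.64), Emp2 (-0.07) and the integrin subunit Itga3 (-0.05). In whole-lung RNA, the markers of this list thus ranged from more than 2-fold lower to differences near 0. Which cells gave each signal was not measured, so these values need not reflect aerocytes alone.

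Of the other general capillary markers, 7 were tested: 5 were lower, 1 was higher and 1 did not pass, with a median of -0.89. Cxcl12, a chemokine made by vascular cells, read 11.60, 11.75 and 11.69 in mutants and 13.54, 13.87 and 13.28 in controls. Its groups were furthest apart in this list, with a difference of -1.88 ± 0.16 (SE; adjusted p = 0.00265), a 3.69-fold lower level. Cd93, a transmembrane receptor of endothelial cells, differed by -1.16 ± 0.18 (adjusted p = 0.0065). Tek, the angiopoietin receptor Tie2, differed by -0.89 ± 0.15 (adjusted p = 0.00882). Gja4 (a gap junction connexin) differed by -0.95 ± 0.19 (adjusted p = 0.0126) and did not pass without control mouse 1 (0.0523). Adgre5 (CD97) differed by -0.85 ± 0.20 (adjusted p = 0.0229), and its call was lost without mutant mouse 1 (0.0694), mutant mouse 3 (0.0574) or control mouse 1 (0.0660) and after centring on pan-endothelial genes (0.0569). Without control mouse 1, the count of lower markers in this list was 3. Which cells gave each signal was not measured here either, and the arterial and fibroblast lists below also held lower genes.

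Lpl moved the other way. Lipoprotein lipase frees fatty acids from circulating triglycerides, and capillary walls carry it bound to Gpihbp1. Lpl read 15.48, 15.29 and 15.38 in mutants and 14.28, 14.28 and 14.55 in controls, a difference of 1.01 ± 0.13 (SE; adjusted p = 0.00405), or a 2.02-fold higher level in mutants. It was higher under all 17 alternative settings.

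**Figure D2:**
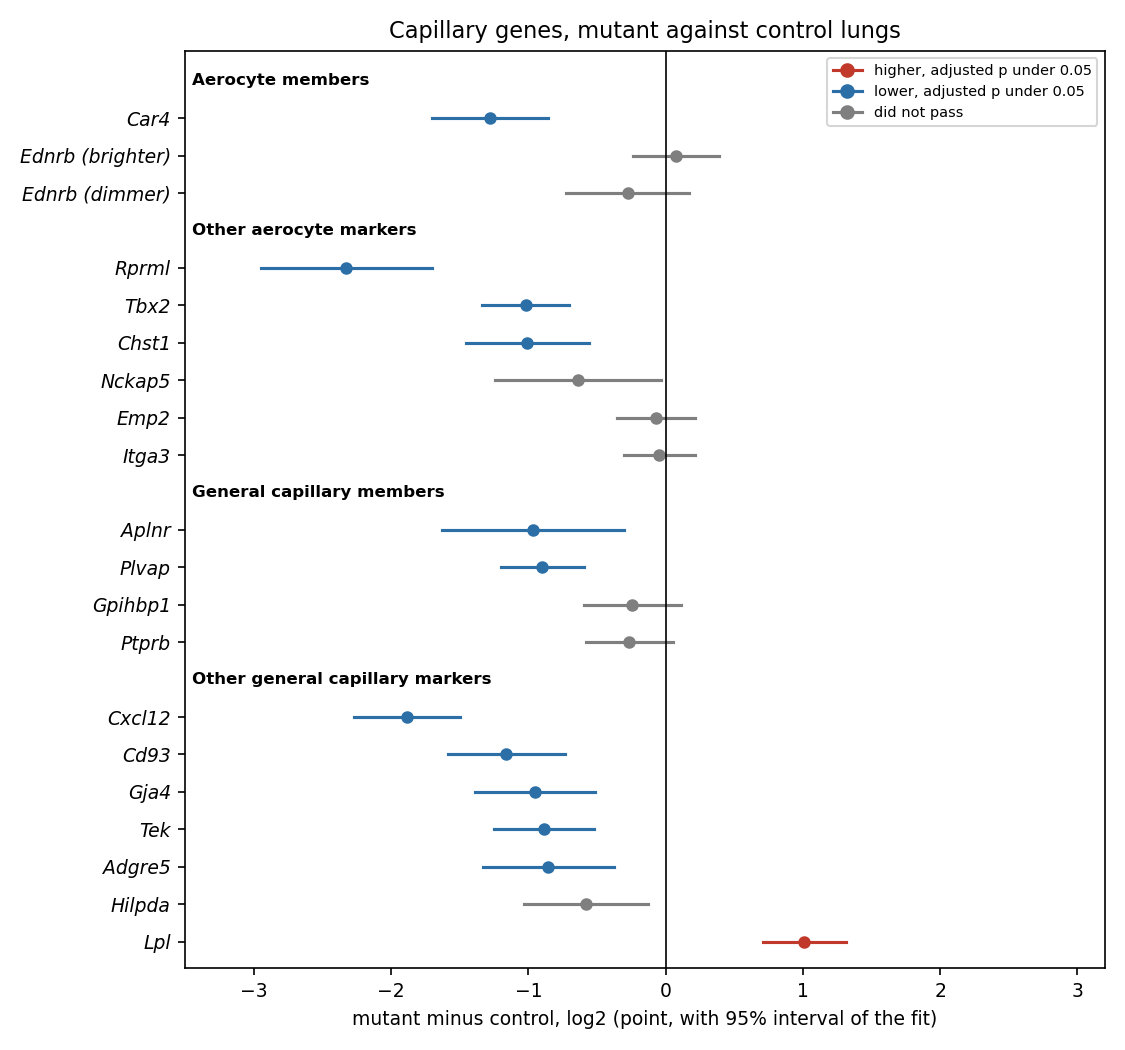
Mutant minus control difference in log2 intensity (x axis) of the member probes and of the other aerocyte and general capillary markers; points are fitted differences, and lines are 95% intervals with 3 mice per group. Car4, Plvap, Aplnr and 8 other markers lie below 0 and passed the test, Lpl alone lies above it and passed, and both Ednrb probes have intervals across 0.

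To set the members against endothelium in general, each array was centred on its mean over 17 pan-endothelial genes. That mean was 12.42 to 12.65 in mutants and 12.86 to 12.90 in controls, a difference of -0.31, and 7 of the 17 genes were lower, 2 were higher and 8 did not pass (median -0.38). The genes of this list did not move as one: Emcn (endomucin) differed by -1.16 and Eng (endoglin, a co-receptor of ALK1) by -0.98, whereas Flt1 (a VEGF receptor) differed by 0.69 and passed as higher, and Pecam1 (CD31) differed by -0.03 (adjusted p = 0.863). Sox17, a transcription factor of arterial endothelium that is also in the arterial list, differed by -0.97 (not past the threshold without control mouse 1, 0.0541) and Icam2, an adhesion molecule, by -0.95. Centring moved the median of all tested probes to 0.34, and 6.76% of genes were then lower and 32.5% higher.

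After centring, the same 3 members were lower. Car4 differed by -0.97 ± 0.19 (SE; adjusted p = 0.00649), Plvap by -0.59 ± 0.17 (adjusted p = 0.0242) and Aplnr by -0.66 ± 0.23 (adjusted p = 0.0498). Ednrb, Gpihbp1 and Ptprb did not pass. The centred value of the brighter Ednrb probe was 0.97, 0.91 and 1.06 log2 units in mutants and 0.71, 0.49 and 0.60 in controls, so that all 3 mutants lay above all 3 controls, with a difference of 0.38 ± 0.15 (SE; adjusted p = 0.0641). Gpihbp1 and Ptprb changed sign, to 0.06 (adjusted p = 0.762) and 0.04 (adjusted p = 0.825). Against the median of 0.34 over all probes on this scale, the centred values of Gpihbp1 and Ptprb lay lower and that of the brighter Ednrb probe close to it. Cxcl12, Cd93, Tek, Gja4, Rprml, Tbx2 and Chst1 were also lower after centring, and Lpl was higher.

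**Figure D3:**
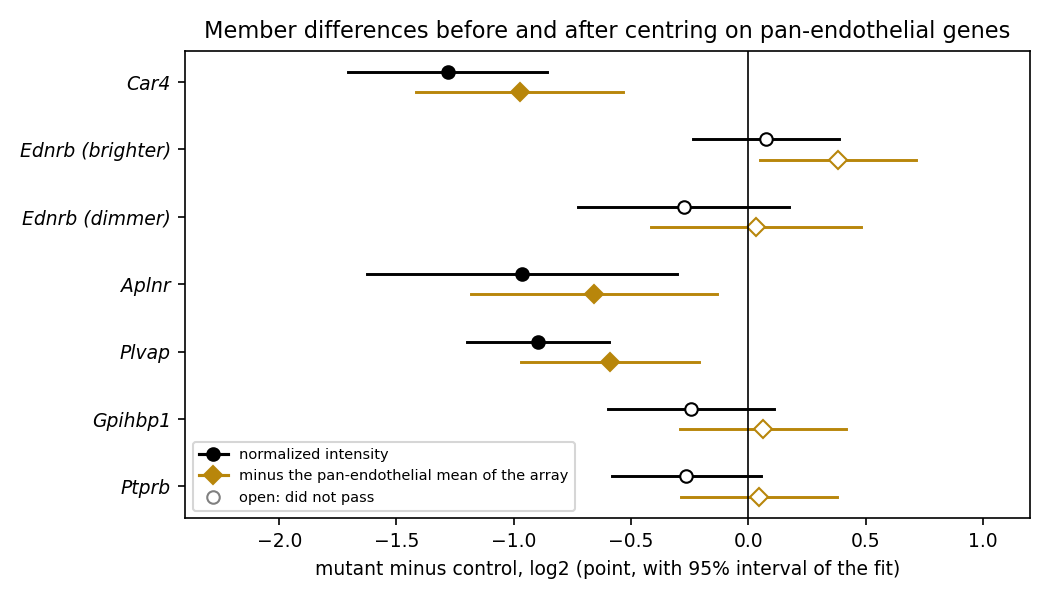
Mutant minus control difference of each member probe (x axis, log2) for normalized intensity (circles) and for intensity minus the array's pan-endothelial mean (diamonds); lines are 95% intervals with 3 mice per group, and open symbols did not pass the test. Car4, Aplnr and Plvap lie below 0 on both scales, while the diamonds of Ednrb, Gpihbp1 and Ptprb lie above 0.

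The partners of each member were read from lists that hold their ligands, enzymes and co-receptors. In the endothelin system 4 of 7 genes were tested and 0 passed. Edn1, the ligand of Ednrb, read 12.12, 12.35 and 12.16 in mutants and 12.60, 12.10 and 12.39 in controls (difference -0.15 ± 0.16, SE; adjusted p = 0.488). Of the 5 apelin genes, Aplnr and the arrestin Arrb2 were tested, and Arrb2 did not pass. Neither apelin nor Apela is analysed here, so the receptor's change stands without a ligand beside it.

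In the list for lipolysis at the capillary wall, which shares Gpihbp1 and Lpl with the lists above, 7 of 9 genes were tested: 4 were higher, 1 was lower and 2 did not pass (median 0.49). Angptl4, a secreted inhibitor of lipoprotein lipase, read 13.26, 13.36 and 12.93 in mutants and 10.68, 11.27 and 12.25 in controls. The controls were more scattered than the mutants, and the difference was 1.78 ± 0.37 (SE; adjusted p = 0.0154), a 3.44-fold higher level. The call was lost without control mouse 2 (0.0516). Sel1l, which helps lipase fold and leave the endoplasmic reticulum, and Vldlr, a receptor for triglyceride-rich lipoproteins, were higher by 0.49 and 0.72, and each call was lost under 5 of the 17 alternatives. Both were lost without mutant mouse 1, control mouse 1 or control mouse 2, and Vldlr also without mutant mouse 2. Lmf1, a lipase maturation factor, differed by -0.61 ± 0.12 (SE; adjusted p = 0.0116). Lmf1 did not pass after centring (0.155). Thus Lpl and its inhibitor Angptl4 were both higher in mutants, while the anchor Gpihbp1 did not pass.

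Of the 9 genes of Kit signalling, 3 were tested. Kitl, the ligand of the receptor Kit, read 9.83, 9.90 and 9.04 in mutants and 10.998, 10.67 and 10.66 in controls. The groups were separate, with a difference of -1.19 ± 0.24 (SE; adjusted p = 0.0146), a 2.28-fold lower level. Without control mouse 1 the call was lost (difference -1.08, adjusted p = 0.0578). The intracellular partners Pik3r1 and Ptpn11 did not pass.

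All 7 genes around Tie2 and VE-PTP were tested, and 3 were lower (median -0.53). These were Tek, with the values above, the related receptor Tie1 (-0.69, adjusted p = 0.0137) and Cdh5, or VE-cadherin (-0.53, adjusted p = 0.0427). Tie1 did not pass without control mouse 1 (0.0534) or after centring (0.0718), and the Cdh5 call was lost under 9 of the 17 alternatives, among them leaving out any control mouse, mutant mouse 1 or mutant mouse 2. Tie1 and Cdh5 are also in the pan-endothelial list. Angpt1 and Angpt2, which encode ligands, and Svep1 did not pass, nor did Ptprb.

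Among 7 genes of diaphragms and caveolae, Plvap was the 1 that passed. Cav1, the main coat protein of caveolae, read 14.40, 14.32 and 14.07 in mutants and 14.22, 14.26 and 14.16 in controls (difference 0.05 ± 0.13, SE; adjusted p = 0.788; interval -0.24 to 0.35). The interval of Cav1 does not reach the fall of Plvap. The difference between the falls of Plvap and Cav1 was not tested.

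Of 15 carbonic anhydrases, 7 were tested, and 3 were lower: Car4, Car2 and Car3. Car2, a cytosolic enzyme, read 9.11, 9.08 and 8.94 in mutants and 9.87, 10.61 and 9.57 in controls (difference -0.97 ± 0.26, SE; adjusted p = 0.0322), and its call was lost under 6 of the 17 alternatives, including without any single mutant or without control mouse 1. Car3, a cytosolic enzyme abundant in muscle and fat, was detected on 0 of 3 mutant arrays and on all 3 control arrays. Its level was at least 11.5-fold lower in mutants. This bound sets each mutant array to the lowest signal of any detected probe, or to the Car3 signal where that was higher. The bound itself was not tested. The call came from the moderated test on the unbounded values (adjusted p = 0.0081), and the probe met the detection filter through the control arrays alone. In the deposited processed values the Car3 call was lost (difference -2.01, adjusted p = 0.0914). The control values of Car3 were 8.52, 11.62 and 8.71, so control mouse 2 stood far above the other controls. Without that mouse the bound was at least 5.73-fold, and it was at least 5.34-fold with a normexp offset of 50 and at least 3.37-fold without background correction.

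**Figure D4:**
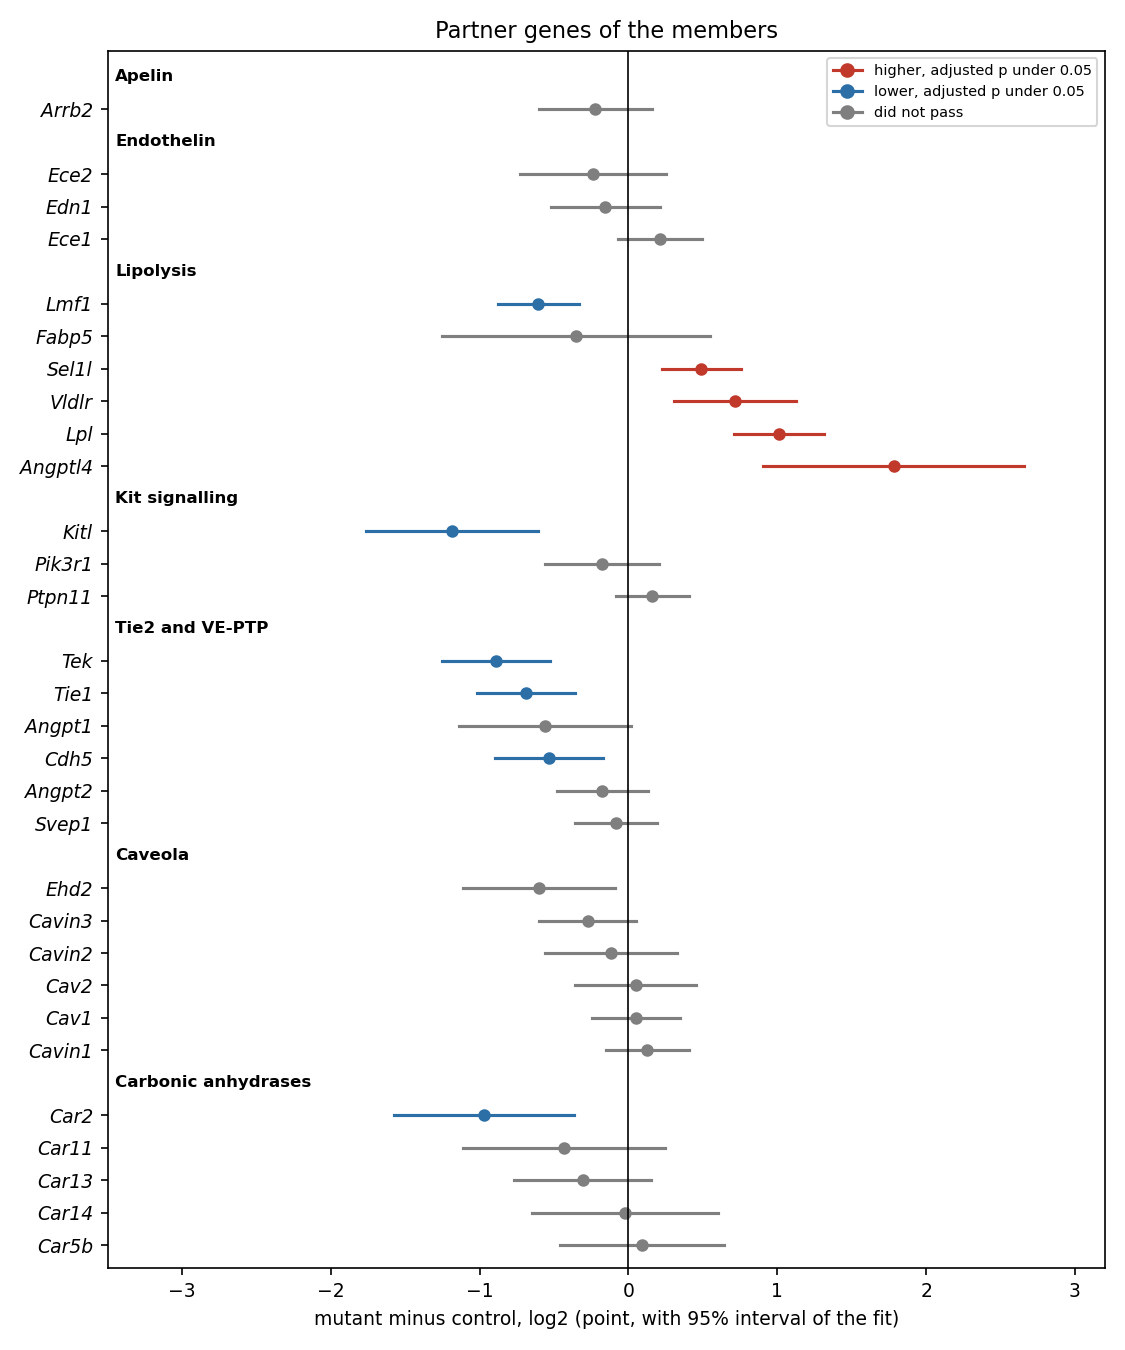
Mutant minus control difference in log2 intensity (x axis) of the tested partner genes, grouped by pathway; points are fitted differences, and lines are 95% intervals with 3 mice per group. The members are not drawn again, and Car3 is left out because it has only a bound; Angptl4, Lpl, Vldlr and Sel1l lie above 0 and passed, while Kitl, Tek, Tie1, Cdh5, Lmf1 and Car2 lie below 0 and passed.

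For each member, the 3 named genes with the most similar profile over the 6 arrays were found by the root mean square difference of mean-centred log2 values. The profiles nearest to Car4 were those of Itgae (0.0915 log2 units), Rasgrp1 (0.0988) and Thy1 (0.0991). Itgae, an integrin subunit of lymphocytes that lodge in epithelia, differed by -1.27 (adjusted p = 0.00301), and Rasgrp1 and Thy1, both expressed in T cells, by -1.16 and -1.21. The T cell gene Cd3e of the leukocyte list below did not pass (-0.07, adjusted p = 0.811). Nearest to Plvap were E2f6 (0.0411), Eva1b (0.0749) and the chemokine Cx3cl1 (0.0791), which differed by -0.93, -0.84 and -0.95. Nearest to Aplnr were the fungal receptor Clec7a (0.140), Gdf9 (0.151) and Tlnrd1 (0.163), with a looser match than for the other members.

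The profile of Ednrb was closest to Hirip3 (0.0336), Aplf (0.0371) and Zfp513 (0.0461), none of which passed the test. The profile of Gpihbp1 was closest to Slco2a1 (0.0450), a prostaglandin transporter of endothelium, then Plec (0.0511) and Adam19 (0.0564). The profile of Ptprb was closest to Laptm5 (0.0414), Hsd3b2 (0.0429) and Notch3 (0.0529). No member was among the 3 nearest profiles of another. These likenesses rest on 6 arrays that share the group difference, and they are descriptions only.

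Some markers of other cells were also lower. Of 8 fibroblast genes, 6 were lower (median -1.80), led by Mfap4 (-2.81), a microfibril protein, while Dcn (0.22) and Pdgfra (-0.04) did not pass. The mean level of the list was 9.42 to 9.82 in mutants and 10.8 to 11.4 in controls. Of the lower genes, Col3a1 and Lum were detected on only 1 mutant array each. Among the alternatives their differences shrank to as little as -0.87 and -0.58, and the Lum call was lost under 4 of 16. Of 6 cardiac muscle genes tested, 3 were lower (median -1.42), with a mean level of 9.94 to 11.1 in mutants and 11.9 to 13.1 in controls. Myl3 differed by -4.11. The call of Myl4 (-1.23, adjusted p = 0.0484) was lost under 11 of the 17 alternatives, among them leaving out any single mouse. Of 8 arterial genes tested, 5 were lower (median -0.75), with Gja5 (an arterial connexin) at -2.87. The call of Hey1, also lower, was lost under 3 of the 17 alternatives. Of 9 smooth muscle and pericyte genes tested, 5 were lower (median -0.45), among them Cspg4 (-0.45) and Cox4i2 (-0.42), while Pdgfrb and Notch3 did not pass. The call of Tagln, also lower, was lost under 3 of the 17 alternatives, and Cspg4 and Cox4i2 were not followed under the alternatives. Against these genes, Rgs5, a pericyte marker undetected on the control arrays, was at least 3.45-fold higher. That bound was at least 1.94-fold with a normexp offset of 50 and at least 1.47-fold without background correction, and the Rgs5 difference was 0.63 in the deposited processed values. The Rgs5 bound itself was not tested, and its call came from the moderated test on the unbounded values. The Rgs5 probe met the detection filter through the mutant arrays alone. The part of these markers in the result was not tested.

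Of 8 venous and lymphatic genes tested, 0 passed (median 0.10). The 7 alveolar epithelial genes tested, which mark the labelled tissue, were detected on all arrays, and 1 was lower (Cldn18, lost without control mouse 1 or 2). Their median difference was -0.17, with a mean level of 13.5 to 13.7 in mutants and 13.7 to 13.8 in controls. Of 3 mast cell genes tested, Cma1 was lower (-0.66, adjusted p = 0.0453), and its call was lost under 12 of 16 alternatives, among them leaving out any mouse but mutant mouse 2. Of 5 leukocyte genes tested, Nkg7 and Cd79a were lower (median -0.53), with a mean level of 8.84 to 9.06 in mutants and 9.03 to 9.82 in controls. The Cd79a call was lost without any single mouse but control mouse 3. Marco (-0.66), Cd3e (-0.07) and S100a8 (0.23) did not pass. The part of these lists in the result was not tested either.

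**Figure D5:**
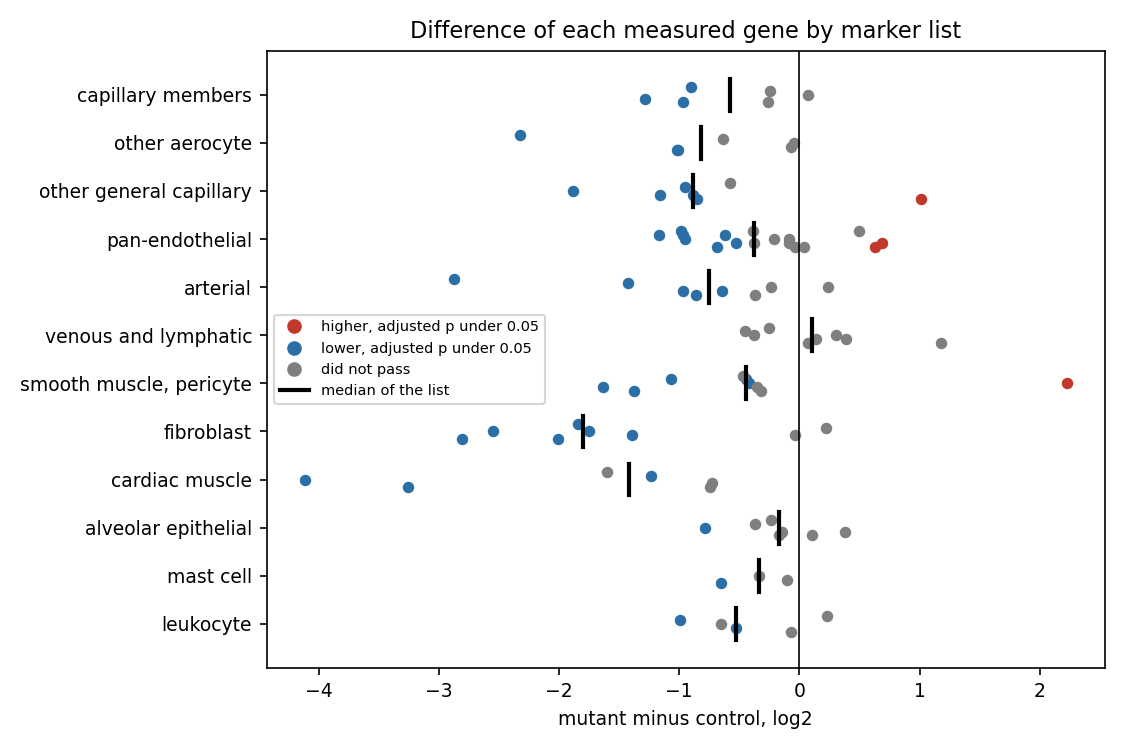
Mutant minus control difference in log2 intensity (x axis) of every tested gene of the marker lists; points are genes, coloured by the outcome of the test, and the vertical mark is the median of each list. The median of the capillary members (-0.58) lies between those of the pan-endothelial list (-0.38) and the other general capillary markers (-0.89), and that of the fibroblast list is lowest (-1.80); Rgs5 is drawn at its fitted value although it was undetected in controls.

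Tmem100 itself had 1 probe, which read 8.44, 9.43 and 9.51 in mutants and 11.16, 15.36 and 10.69 in controls. The mutant values were all lower than the control values, but the difference of -3.28 ± 1.15 (SE) did not pass the test (adjusted p = 0.0749). Without control mouse 2 it passed, with a difference of -1.80 (adjusted p = 0.0283), and with all mice kept it passed after centring on pan-endothelial genes (-2.97, adjusted p = 0.0460). Under the remaining 15 alternatives it did not pass. Whether the probe lies within the deleted segment is not known here. Detected probes numbered 12781 to 13046 on mutant arrays and 13354 to 13749 on control arrays, and the median intensity of the arrays was 333 to 363.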

How the data were processed

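Total RNA of whole lungs (550 ng per sample) was amplified to biotin-labelled cRNA, per the labels' protocols. The deposited unnormalized table holds, for each probe and array, a linear-scale intensity with its detection p-value, per the file headers. GenomeStudio 2009.2 and R 2.4.1 are named without a role in the submitters' processing notes; the scan, chip positions and background steps are not stated in the labels. The authors also deposited processed log2 values for 13261 probes, in which the column of mutant mouse 1 equals that of mutant mouse 2 at every probe, so that table served only as an alternative with 2 distinct mutants.

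Intensities were normalized with neqc (offset 16, negative controls inferred from the detection p-values) and tested with lmFit and eBayes of limma 3.58.1 in R 4.3.3, without covariates. Groups came from the sample titles, with 3 mice each. Probes with a detection p-value below 0.05 on at least 3 arrays were tested (13361), and adjusted p-values follow Benjamini and Hochberg. Of 12495 probes with a single symbol, 12490 had it updated by Entrez ID through RefSeq genes of GRCm38.p6, and 5 kept the older one. For a gene with several tested probes, the one brightest on average was used. Arrays have no read depth, and the number of arrays limits the precision.

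The genes and lists were chosen with earlier results of these data known. Named were all 8 members; in the partner lists, the genes that passed and Apela, Edn1, Lpl, Kitl, Tek, Cav1 and Car2; in other lists, up to 4 genes that passed by size of change, or else the 2 lowest p-values; and the 3 nearest profiles of each member, leaving out clone, locus and RIKEN names. Other genes that did not pass, and Pecam1, Flt1, Cspg4 and Cox4i2, were named after their values were seen. The alternatives tried were no background correction, normexp with an offset of 50, scaling to a common median, centring on pan-endothelial genes, the processed values, no filter, a stricter filter (detection p-value below 0.01 on every array), a robust variance trend, array weights, the mean of a gene's probes, leaving out each mouse, and the replicate number as a block.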

Additional observations from a re-analysis of the deposited data

How the results depend on the processing

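The count of lower members was 2 or 3 and of higher members 0 under all 17 alternatives; it was 2 where Aplnr lost its call, with no filter, with the replicate block (adjusted p = 0.0794) and without mutant mouse 1, mutant mouse 3 or any single control. Car4 and Plvap kept their direction and call under all 17. Other aerocyte markers called lower numbered 2 to 4. Other general capillary markers called lower numbered 3 to 5 when each mouse was left out (3 without control mouse 1). Replicate numbers did not pair the mice: deviations of same-numbered mice correlated at -0.09, -0.01 and -0.04, and the replicate block gave 1400 lower and 1242 higher probes, against 1799 and 1774 without it; it also ended the call of Adgre5 (0.0513). Leaving out each mouse gave 890 to 1540 lower and 774 to 1527 higher probes; counts moved most without control mouse 1, control mouse 2 (1093 and 1015) and mutant mouse 1 (1110 and 968). Centring on pan-endothelial genes gave 842 lower and 4445 higher probes, so that 15.9% of calls were lower, against 50.4% without centring. By the construction of that alternative, any fall smaller than that of the pan-endothelial mean (-0.308) turned positive. Examples are Pecam1 (to 0.275), Gpihbp1 (0.0642), Ptprb (0.0444), the dimmer Ednrb probe (0.0322), Edn1 (0.153) and Slco2a1 (0.0555). Others are Plec (0.0221), Adam19 (0.0630), Hsd3b2 (0.0490) and Laptm5 (from -0.307 to 0.00109). Signs also turned for Ednrb (array weights -0.0447, mean of its probes -0.101), Pecam1 (median scaling 0.0241), Cav1 (processed values -0.0166), Hirip3 (array weights -0.0288), Aplf (median scaling -0.0124) and Zfp513 (median scaling -0.0311, array weights -0.0446). With each mouse left out, differences spanned -0.127 to 0.0265 for Pecam1 (positive without control mouse 2), -0.0153 to 0.147 for Cav1 (negative without mutant mouse 1), -0.00506 to 0.169 for Hirip3 and -0.00144 to 0.126 for Zfp513 (both negative without mutant mouse 3). The cause was not tested. Median scaling made 57.8% of calls lower. Probes near background, among them those of Rprml, Car3, Rgs5, Cma1, Col3a1 and Lum, give no firm size of change.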
